A study of Mus musculus with 2 samples.

Results

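The aryl hydrocarbon receptor gene Ahr, its partner Arnt, the 2 feedback genes Ahrr and Tiparp, and the 3 enzyme targets Cyp1a1, Cyp1b1 and Aldh3a1 were followed in peeled mouse epidermis. The 7 genes were chosen by name, and each was read by every non-control probe whose RefSeq accession maps to it, which gave 8 probes for 7 of the 18206 genes named on the array. The knockout array held RNA of mice with floxed Nfkbiz alleles (Nfkbiz flox/flox) and the K5-cre transgene, in which the keratin 5 promoter drives the recombinase in basal keratinocytes and their progeny. The control array held RNA of mice with the same floxed alleles and no cre named in the labels, so both groups carry the floxed gene. Nfkbiz encodes IκBζ, a nuclear regulator of NF-κB target genes, and both epidermis samples were taken in the steady state. The sources used here give neither the age of the mice, nor how many were used for an RNA sample, nor which exons are deleted.

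The receptor is a ligand-activated transcription factor of the bHLH-PAS family that waits in the cytoplasm with HSP90 and other chaperones. Once bound by a ligand, such as a dioxin, a plant indole or a product of tryptophan made by light or by skin microbes, it enters the nucleus, pairs with ARNT and binds DNA at the core letters GCGTG. Its classic targets include cytochrome P450 genes that clear the ligand, together with AHRR and TIPARP, which restrain the receptor. In skin it is known for roles in barrier formation, pigmentation and the upkeep of epidermal T cells and Langerhans cells.

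With 1 array for the knockout and 1 for the control, there are no replicates, and no difference could be tested. Differences are knockout minus control on the log2 scale, after each array's 75th percentile over probes was subtracted, and the value after ± is the standard error from the scanner software's error model, which covers error within these arrays and not between mice. A gene counted as measured when its brightest probe was well above background and not saturated. Signals had a 75th percentile of 226 on the knockout array and of 194 on the control array, 56.3% of probes were well above background on each, and no probe was saturated. Keratinocyte markers were bright on both arrays, with Krt10 at 80200 on the knockout array and 76900 on the control array, and all 8 of these markers were within 2-fold. Nfkbiz itself had a signal of 1760 on the knockout array and 3100 on the control array, a difference of -1.04 ± 0.20 that was -0.69 with median scaling. Whether its 1 probe lies in the deleted part is not known here, so that this signal is no sure check of the genotype. Markers of some other tissues differed: the summed signal of 4 melanocyte markers was 476 on the knockout array and 1738 on the control array. In the same order of arrays, that of 6 skeletal muscle markers was 81.2 and 675, and that of 3 red blood cell markers 2106 and 18303. Sums were closer for 5 sebaceous gland markers (24218 and 24694), 4 adipocyte markers (1254 and 927) and 7 dermal fibroblast markers (3947 and 4322).

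The receptor gene Ahr was close on the 2 arrays, the probes of its partner Arnt disagreed, and the enzyme targets differed in opposite directions. Aldh3a1 was 4.21-fold higher on the knockout array and Ahrr 1.78-fold higher. Cyp1a1 was lower by a bound of 3.71-fold that carries no error, and Cyp1b1 was lower at the edge of 2-fold. Of the 6 members with a measurement on each array, 1 was at least 2-fold higher and 0 were at least 2-fold lower. The background is 12398 genes with a measurement on each array, of which 3.04% lay at least 2-fold higher and 4.39% at least 2-fold lower, 7.43% in all. With median scaling 2 members were higher, Ahrr and Aldh3a1, beside 8.29% of all genes higher and 2.27% lower. At a threshold of 1.5-fold the same 2 members were higher and Cyp1b1 was lower, beside 10.1% of all genes higher and 13.2% lower. The counts of 6 members are given as a description.

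**Figure D1:**
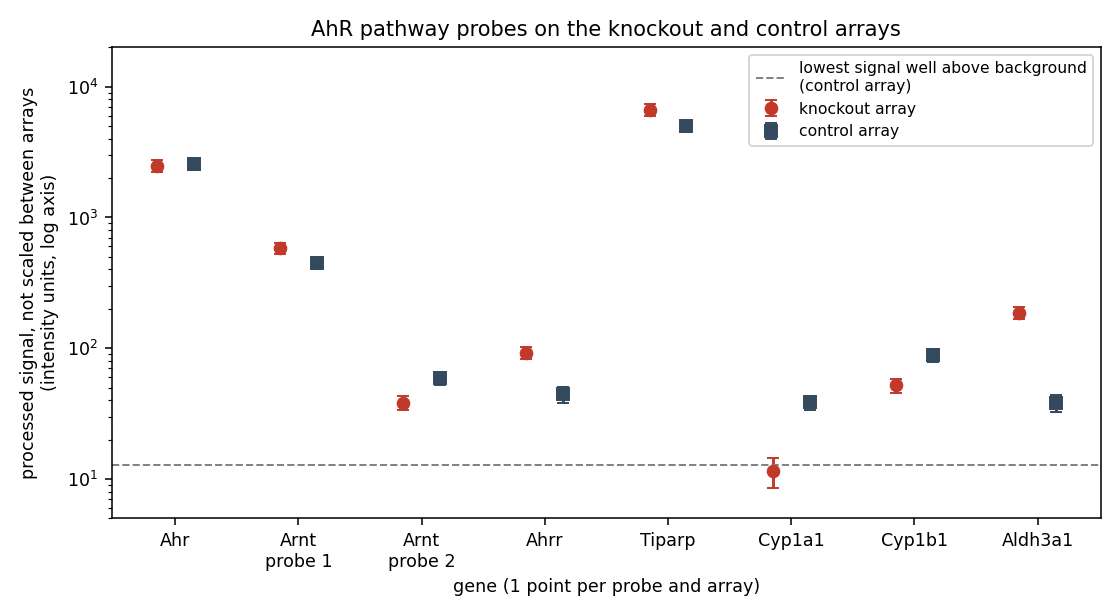
Processed signals of the 8 probes that read the 7 genes, with the error-model error as bars, on a log axis and not scaled between arrays. Aldh3a1 and Ahrr stand higher on the knockout array, Cyp1a1 and Cyp1b1 lower, and the knockout Cyp1a1 signal of 11.5 lies under the lowest control signal that was well above background, 12.7 (dashed line).

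Ahr, the receptor gene, was read by 1 probe printed at 10 places on each array, so that it is the member with replicate spots. Spots at 2 of those places carried an outlier mark, at 1 on both arrays and at the other on the knockout array, and both places were left out. The 8 remaining spots had a lowest, median and highest signal of 2390, 2490 and 2600 on the knockout array, and of 2370, 2540 and 2740 on the control array. The spots of the 2 arrays therefore overlapped almost completely before scaling, with means of 2490 ± 82.5 on the knockout array and 2550 ± 117 on the control array (SD over 8 spots of 1 array, not over mice).

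After scaling the Ahr difference was -0.25 ± 0.20, with a range of -0.38 to -0.16 over the 8 spots. This is a small difference: 31.5% of all measured genes lay at least as low, and the 95% interval of the error model reached from -0.65 to 0.15. Its sign depends on scaling, since subtracting the median in place of the 75th percentile gave 0.10. That choice moved the median of all genes from -0.04 to 0.31, and relative to this median Ahr was at -0.21 under both scalings. Keeping the marked spots, of which 1 had a signal of 4550 on the knockout array, gave -0.17.

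**Figure D2:**
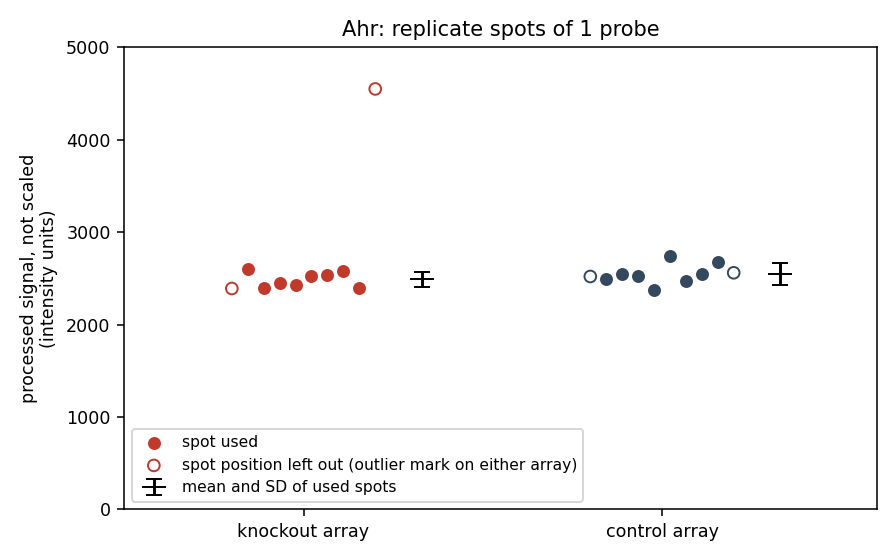
Signals of the 10 spots of the Ahr probe on each array, with used spots filled, left-out places open, and the mean and SD of the 8 used spots beside them. The used spots of the arrays overlap, and 1 marked knockout spot stands apart at 4550.

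Arnt, the partner that the receptor needs to bind DNA and that HIF proteins also use, was read by 2 probes that did not give the same answer. The brighter probe had a signal of 583 on the knockout array and 450 on the control array, a difference of 0.15 ± 0.20. The dimmer probe had a signal of 38.3 on the knockout array and 59.2 on the control array, a difference of -0.85 ± 0.24. The gap of 1.0 between them is wide for 1 gene, as 8.80% of the 4070 genes with several measured probes had a gap at least as large and the median gap was 0.29. A direction for Arnt can thus not be given: the mean over both probes was -0.35, and where each probe lies in the transcript was not analysed here.

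Genes that hold, move or modify the receptor were mostly within 2-fold, as most genes were, since 7.43% of all genes were at least 2-fold apart. All 10 genes of the receptor complex and its export were measured and lay within 2-fold, with a median difference of 0.13 beside -0.04 over all genes. Hsp90ab1, a subunit of the chaperone that keeps the receptor ready for ligand, had a signal of 35200 on the knockout array and 26400 on the control array. This was a difference of 0.19, with its other probe at 0.43. Ptges3, which encodes the p23 co-chaperone, differed by -0.31 (its other probe by -0.01), and Xpo1, the exporter of nuclear cargo, by 0.43. Cul4b, a ubiquitin ligase scaffold that can work with the receptor, differed by 0.25 (its other probe by 0.68). Of the 14 transcription partners and coregulators, 13 were measured on both arrays and all 13 lay within 2-fold by their brightest probe, with a median of 0.14 that became -0.02 when probes of a gene were averaged. The coactivator genes Ncoa7 at 0.54 and Ncoa1 at 0.52 and Relb, an NF-κB subunit that can pair with the receptor, at 0.48 were near the top of that list. Crebbp, a histone acetyltransferase gene, was lowest by brightest probe at -0.65 ± 0.38. Its signals were dim, at 19.5 on the knockout array and 26.3 on the control array. Probes of the coactivator gene Ncoa2 disagreed, with the brightest at 0.40 and the other 2 at -1.07 and -0.83.

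Of the 2 feedback genes, Ahrr had the larger difference and Tiparp one within its error. Tiparp encodes an ADP-ribosyltransferase that modifies and destabilises the receptor, and it was the brightest member, with a signal of 6670 on the knockout array and 4980 on the control array. Its difference was 0.20 ± 0.20, with 29.4% of all measured genes at least as high, and it lay between 0.07 and 0.55 over all processings tried. The 95% interval of the error model reached from -0.20 to 0.60, so that no difference of Tiparp was detectable.

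Ahrr encodes the repressor that competes with the receptor for ARNT and for DNA. It was dim on both arrays, at 92.1 ± 9.86 on the knockout array and 44.3 ± 5.95 on the control array, with errors from the error model. After scaling the difference was 0.84 ± 0.25, which 4.82% of all genes equalled or exceeded. The 2-fold call depends on the processing, since the difference was 1.18 with median scaling, 1.19 after the median of neighbouring spots was subtracted. It was 0.33 after normexp background correction with its offset. Langerhans and T cells are known to express Ahrr, and 11 of their 12 markers lay above 0, and so above the all-gene median of -0.04, after scaling. The summed signal of 5 Langerhans cell markers was 24832 on the knockout array and 18420 on the control array, and that of 7 T cell markers was 2351 and 1402 in the same order. The median difference was 0.68 for the Langerhans cell list and 0.71 for the T cell list. Cd207, which encodes langerin, had the largest Langerhans cell difference at 1.65, and Mfge8 the lowest at -0.14. Itgae, an integrin of epidermal T cells, was near the top of its list at 1.07, and Cd3d was lowest there at 0.04. The brighter markers Cd74, H2-Aa and Cd3g differed by 0.76, 0.68 and 0.62. Probes of Cd247 disagreed in sign, with the dimmer one at -0.32. All 12 markers were measured on both arrays. Their part in the Ahrr difference was not tested, and in bulk epidermis more cells of a type and more RNA per cell cannot be told apart.

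The promoter windows of the targets show the letters through which the receptor is known to act, and they are printed because these 4 targets differed unequally between the arrays. Each window runs from 250 bases before to 50 bases after the start of the gene in RefSeq (build GRCm38.p6), 5′ to 3′ on the strand of the gene, and capitals mark the core GCGTG or, on the other strand, CACGC. The Ahrr window is chr13:74292282-74292581, minus strand, the Tiparp window chr3:65528197-65528496, plus strand, the Cyp1a1 window chr9:57697363-57697662, plus strand, and the Cyp1b1 window chr17:79715012-79715311, minus strand.
Ahrr: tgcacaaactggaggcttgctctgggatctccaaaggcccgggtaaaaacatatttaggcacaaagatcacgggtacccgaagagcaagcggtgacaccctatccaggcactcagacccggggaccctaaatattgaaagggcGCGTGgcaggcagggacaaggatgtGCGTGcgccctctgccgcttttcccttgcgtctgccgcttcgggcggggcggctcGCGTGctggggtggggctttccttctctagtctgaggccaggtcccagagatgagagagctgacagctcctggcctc
Tiparp: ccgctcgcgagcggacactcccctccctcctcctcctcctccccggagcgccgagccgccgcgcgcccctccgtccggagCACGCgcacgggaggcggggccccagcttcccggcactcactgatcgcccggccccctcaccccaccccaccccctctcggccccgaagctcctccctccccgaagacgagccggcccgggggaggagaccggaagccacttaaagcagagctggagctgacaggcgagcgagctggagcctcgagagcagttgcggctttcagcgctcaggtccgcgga
Cyp1a1: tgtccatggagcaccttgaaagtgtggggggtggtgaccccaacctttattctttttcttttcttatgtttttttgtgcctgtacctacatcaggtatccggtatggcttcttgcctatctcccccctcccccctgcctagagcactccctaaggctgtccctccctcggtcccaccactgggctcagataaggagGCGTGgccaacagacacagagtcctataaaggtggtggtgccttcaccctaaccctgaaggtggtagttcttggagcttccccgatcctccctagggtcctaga
Cyp1b1: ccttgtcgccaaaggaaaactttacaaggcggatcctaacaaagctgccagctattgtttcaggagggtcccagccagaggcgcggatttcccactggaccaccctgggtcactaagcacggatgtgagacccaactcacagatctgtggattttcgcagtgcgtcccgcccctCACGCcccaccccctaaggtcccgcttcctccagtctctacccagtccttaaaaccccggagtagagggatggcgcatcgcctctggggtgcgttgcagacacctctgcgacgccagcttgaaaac

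RefSeq windows were matched for 5 of the 7 members, Arnt being the fifth, and not for Ahr and Aldh3a1. The core occurred 3 times in the Ahrr window, the nearest 2 with their first base 82 and 27 bases upstream of the start, and 1 time in each of the other 4 windows, 170 bases upstream in Tiparp, 54 in Cyp1a1, 76 in Cyp1b1 and 29 in Arnt. Both strands were searched. Of all 32851 windows in the table, 32.4% held the core and 3.91% held it 3 or more times. The longer form TNGCGTG, which overlaps the core, was found in Ahrr alone among the 5 and in 5.07% of all windows. A κB motif, the sequence class bound by NF-κB proteins, was found in the windows of Ahrr, Cyp1a1 and Cyp1b1 and in 8.46% of all windows. The share of G and C was 73.7% in the Tiparp window and 54.0% in the Cyp1a1 window, against a median of 52.7% over all windows. The genes with a core thus included Ahrr, which was higher on the knockout array, and Cyp1a1, which was lower. A match is a description of letters and not evidence of binding, and well-studied receptor sites of Cyp1a1 lie further upstream than this window.

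Cyp1a1 encodes the most ligand-inducible cytochrome P450 of the pathway and is the usual readout of receptor activity. Its probe had a signal of 11.5 ± 2.99 on the knockout array, which was not well above background, and 38.5 ± 4.87 on the control array, which was. Signals well above background began at 12.1 on the knockout array, and set against that signal Cyp1a1 was 3.71-fold lower there. This bound is not a sure minimum, since some brighter spots were not well above background, such as Npas3 at 14.2 on the knockout array. From the Cyp1a1 signals themselves, the 95% interval of the error model reached from -2.78 to -1.15. The signals were both dim, and after normexp background correction the bound was a log2 difference of -0.66, under 2-fold, while it was -1.54 with median scaling. Among the 470 genes measured on the control array with no probe well above background on the knockout array, 177 (37.7%) were at least 2-fold lower by the same bound, so such a bound was common. No neighbouring spot within 3 rows and 3 columns had a like 4-fold difference.

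Cyp1a1 is also known from vessels, and most endothelial markers were at the edge of detection. Of 6 endothelial markers, 0 were measured on both arrays. Emcn, which encodes endomucin, had a signal of 3.38 on the knockout array and 55.6 on the control array, and was measured on the control array alone. Cdh5 had 3.82 and 18.6 in the same order and Pecam1 2.84 and 4.59, and these 2 genes were not well above background on either array. Tek, a receptor gene of vessels, lay the other way, with 19.2 on the knockout array and 4.6 on the control array, and was measured on the knockout array alone. The summed signal of the 6 was 34.7 on the knockout array and 89.8 on the control array, and their part in the Cyp1a1 difference was not tested.

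Cyp1b1, a cytochrome P450 that acts on hydrocarbons, oestrogens and retinoids, lay on the 2-fold line. Its signal was 51.9 ± 6.21 on the knockout array and 88.7 ± 9.67 on the control array. The difference was -0.99 ± 0.23, or 1.99-fold lower, and 4.48% of all measured genes were at least as low. In the authors' deposited table, where each array was scaled slightly differently, it was -1.0 and counted as 2-fold lower, while normexp gave -0.56. Cyp1b1 is also expressed by fibroblasts, whose 7 markers summed to 3947 on the knockout array and 4322 on the control array, with a median difference of -0.35 over the 6 that were measured. Their part in the Cyp1b1 difference was not tested.

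Aldh3a1, an aldehyde dehydrogenase that oxidises aldehydes from lipid peroxidation and is a member of the classic AhR gene battery, lay on the other side. Its signal was 187 ± 19.1 on the knockout array and 38.1 ± 5.80 on the control array. The difference of 2.07 ± 0.26 placed it at rank 41 of the 12398 genes ordered from the highest difference, with 0.331% of genes at least as high. The direction was the same under each of the 10 other processings tried, from 0.95 to 2.42, and only normexp took it below 2-fold. Around its spot the median difference of neighbouring spots was 0.25, no neighbour had a like 4-fold difference, and subtracting that median left 1.82. The genes with the nearest differences over the 2 arrays were Ttc39b at 2.06 and Ppp1r15a at 2.04 below it, and Bdh2 at 2.09 and the interferon-induced GTPase gene Irgm1 at 2.14 above it.

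**Figure D3:**
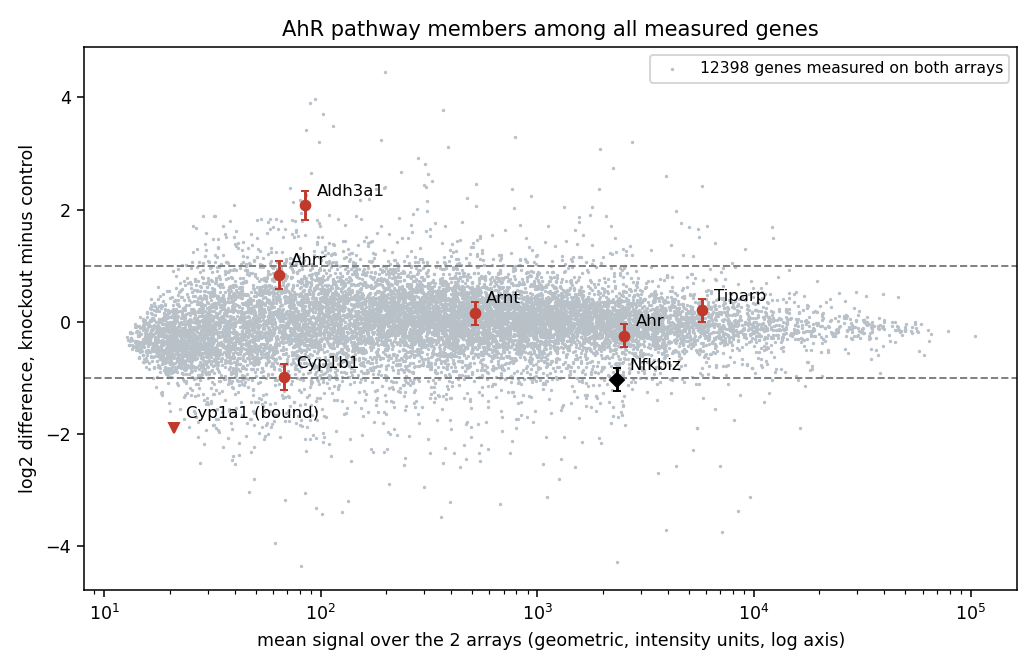
Log2 difference (knockout minus control) against mean signal for the 12398 genes measured on both arrays, with the AhR members in red, error-model bars, and Nfkbiz in black. Aldh3a1 stands at 2.07 among dim genes, Ahr and Tiparp lie near 0 among bright ones, and the triangle is the bound of Cyp1a1 at -1.89.

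Brightness sets how much weight these differences carry. Ahrr, Cyp1b1, Aldh3a1 and Cyp1a1 all had a geometric mean signal over the arrays under 100. In that range 9.66% of genes were at least 2-fold apart, against 7.82% between 100 and 1000 and 4.67% above 1000. Replicate spots gave the same order, since the median SD of the spot-by-spot difference was 0.19, 0.12 and 0.09 for these ranges, from 50, 50 and 53 probes with at least 5 spots. The differences of Aldh3a1, Cyp1b1 and Ahrr exceeded the median spot error of 0.19, but the largest SD among probes under 100 was 0.72. Each of these genes was read by 1 spot, so its own spot error was not measured, and the spread between mice is not known.

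**Figure D4:**
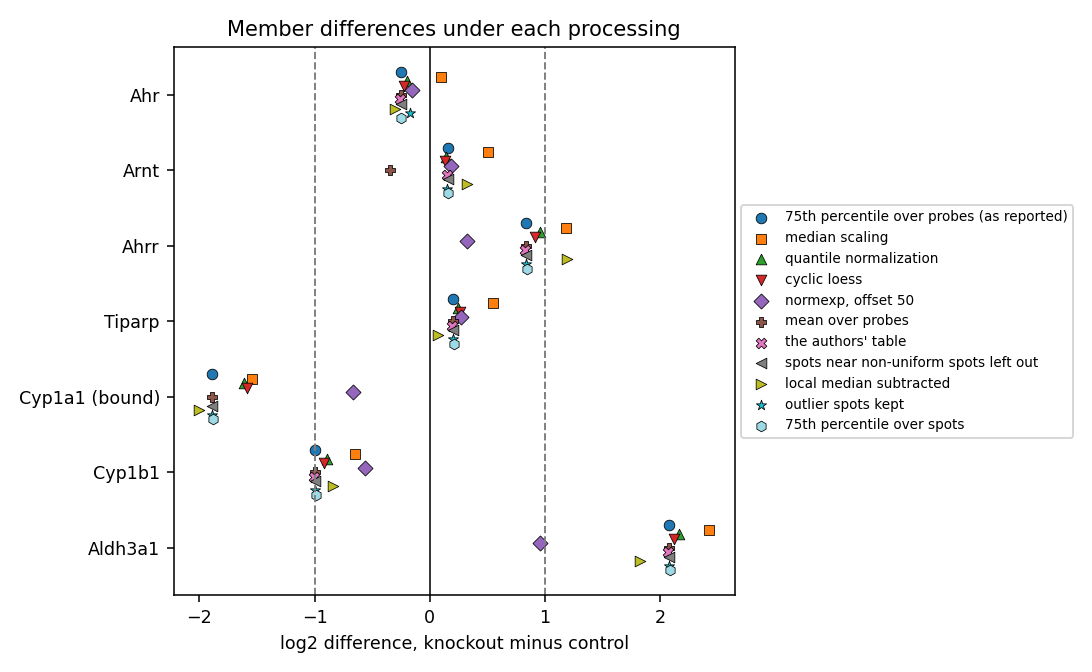
Log2 difference (knockout minus control) of each member under the reported processing and 10 others, with dashed lines at 2-fold; Cyp1a1 is a bound and has no value from the authors' table. Aldh3a1 stays above 0 and Cyp1b1 and Cyp1a1 below 0 throughout, Ahr crosses 0 with median scaling, and Arnt crosses 0 when its probes are averaged.

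Of 15 further battery genes on the array, 12 had a measurement on each array. By the brightest probe of each gene, 0 were at least 2-fold higher and 1 at least 2-fold lower, beside 3.04% and 4.39% of all genes. The list median of 0.02 was 0.37 with median scaling, beside -0.04 and 0.31 over all genes. Aldh1a3, which makes retinoic acid from retinaldehyde, was the lower one, with a signal of 35.4 on the knockout array and 104 on the control array (-1.78 ± 0.23). Cyp2s1, a skin cytochrome P450, had a signal of 2100 on the knockout array and 1040 on the control array, a difference of 0.79 that passed 2-fold with median scaling, at 1.14. Nfe2l2, which encodes the oxidative stress factor NRF2, differed by 0.38 by its brightest probe and by 1.03 by its other probe. Gsta1, a glutathione transferase gene, differed by 0.61 and Nqo1, a quinone reductase shared with the NRF2 pathway, by -0.80, each within 2-fold. Cyp1a2, the close relative of Cyp1a1, was at background on both arrays, at 11.7 on the knockout array and 13.4 on the control array.

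The other aldehyde dehydrogenases gave no second 2-fold higher gene. Of 15 measured relatives, 0 lay at least 2-fold higher and 2 lay at least 2-fold lower, Aldh1a3 and Aldh3b1, beside 3.04% and 4.39% of all genes. Of the 15, 12 were below 0 and also below the all-gene median of -0.04. The list median of -0.11 became 0.23 with median scaling, beside 0.31 over all genes. Aldh3b1 was dim, at 17.8 on the knockout array and 31.8 on the control array (-1.06 ± 0.32), and it was within 2-fold with median scaling, quantile normalization, loess and normexp. The mitochondrial enzymes Aldh4a1 and Aldh5a1 differed by -0.81 and -0.38. Aldh3a2, the fatty aldehyde dehydrogenase encoded by the closest relative of Aldh3a1, had a signal of 389 on the knockout array and 357 on the control array, a difference of -0.10.

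Tiparp also belongs to the PARP family of ADP-ribosyltransferases, and its relatives were higher more often than not. Of 13 relatives measured on both arrays, 11 were above 0, and these also lay above the all-gene median of -0.04. The list median was 0.54, and 2 relatives were at least 2-fold higher and 0 at least 2-fold lower, beside 3.04% and 4.39% of all genes. Parp14, an interferon-induced member, had a signal of 457 on the knockout array and 140 on the control array (1.49 ± 0.21), and Parp16, a member of the endoplasmic reticulum membrane, had 81.0 and 34.1 in the same order (1.03 ± 0.26). Parp12 and Parp10 differed by 0.87 and 0.80, while Zc3hav1, the zinc finger antiviral protein gene, differed by -0.90. The PARP median was above 0 under all processings tried, from 0.30 to 0.89. Parp14 was at 0.17 when all its probes, dim ones included, were averaged, and Parp16 at 0.30 with normexp.

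Enzymes that make or clear tryptophan-derived ligands were mostly dim or close together. Of 15 genes of tryptophan metabolism on the array, 8 were measured on both arrays. All 8 lay within 2-fold, where 7.43% of all genes were at least 2-fold apart. Their median of -0.11 was above 0 with median scaling and after subtraction of neighbouring spots, where the all-gene median was 0.31 and 0.03. Ido1 and Il4i1, which encode enzymes that start breakdown of tryptophan toward receptor ligands, had signals of 22 and 15.9 on the knockout array, and 25.0 and 18.6 on the control array. Their differences of -0.40 and -0.45 were close to the error of dim spots, 0.31 and 0.41. Afmid, the formamidase of the kynurenine path, differed by 0.35 and Kyat3, a kynurenine aminotransferase gene, by -0.19. Kynu, Kmo, Tdo2, Ido2, Ddc and Aadat were not well above background on either array. Tph1, measured on the control array alone, was lower on the knockout array by a bound of 1.73-fold that carries no error.

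Of the relatives that share ARNT or the bHLH-PAS fold, 2 of 8 measured were at least 2-fold lower, beside 4.39% of all genes. Hif1a, the hypoxia factor that pairs with ARNT, had a signal of 1260 on the knockout array and 2790 on the control array (-1.37 ± 0.20). Per2, a clock gene with PAS domains, was the other of 8 measured relatives at least 2-fold lower (-1.31 ± 0.31), with its other probe at -0.51, and 0 were at least 2-fold higher. Per2 was within 2-fold with median scaling (-0.96), normexp (-0.57) and probe means (-0.91), while Hif1a was at -1.02 with median scaling. Epas1, the second hypoxia factor, and Clock stayed at 0.03 and -0.08, Arntl differed by 0.21, Arntl2 by -0.51 (its other probe by -0.05) and Per1 by -0.80. Hif3a had probes that disagreed, 1 with signals of 7.56 on the knockout array and 335 on the control array and 1 that differed by -0.36. The list median of -0.30 became 0.05 with median scaling, beside -0.04 and 0.31 over all genes.

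A list of cytochrome P450 genes of retinoid and steroid metabolism, with their reductase Por, had 7 of 12 genes measured on both arrays. No gene of the 7 was at least 2-fold apart, beside 7.43% of all genes. The list median of -0.34 became 0.01 with median scaling, beside -0.04 and 0.31 over all genes. Cyp26b1, which degrades retinoic acid, had a signal of 1540 on the knockout array and 978 on the control array (0.43 ± 0.20). Por, which feeds electrons to microsomal P450 enzymes such as the CYP1 family, had a signal of 4770 on the knockout array and 7810 on the control array (-0.93 ± 0.20). Cyp27a1 and Cyp17a1, which act on sterols and steroids, differed by -0.64 and -0.58.

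A looser list of candidate receptor-responsive genes, drawn from other tissues and shared with other pathways, split in both directions. Of 16 measured, 3 were at least 2-fold higher and 4 at least 2-fold lower, beside 3.04% and 4.39% of all genes. The list was written with earlier results of these data known, so these counts are a description. Its median of -0.28 became 0.07 with median scaling, beside -0.04 and 0.31 over all genes. Higher were the stress gene Gadd45b, with a signal of 11800 on the knockout array and 3110 on the control array (1.70 ± 0.20, its other probe at 0.57), the cyclin gene Ccng2 (1.35 ± 0.20) and the Notch effector gene Hes1 (1.28 ± 0.20). Lower were the protease inhibitor gene Serpinb2 (-1.90 ± 0.20), the amino acid transporter gene Slc7a5 (-1.69 ± 0.20), the prostaglandin synthase gene Ptgs2 (-1.63 ± 0.21) and the BH3-only gene Pmaip1 (-1.50 ± 0.20). Notch1 lay just inside 2-fold, at -0.999. Barrier genes linked to the receptor had 1 of 10 measured members past 2-fold, beside 7.43% of all genes. Their median of -0.16 became 0.19 with median scaling, beside -0.04 and 0.31 over all genes. The member past 2-fold was the late envelope gene Lce3c at -2.81 (its other probe at -3.30). Ivl, which encodes involucrin, and Flg2 differed by 0.16 and 0.05, and Elovl4 by -0.33. Hrnr differed by -0.21 (its other probe by -0.05) and Ovol1, a transcription factor gene, by 0.47 (its other probe by 0.06).

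**Figure D5:**
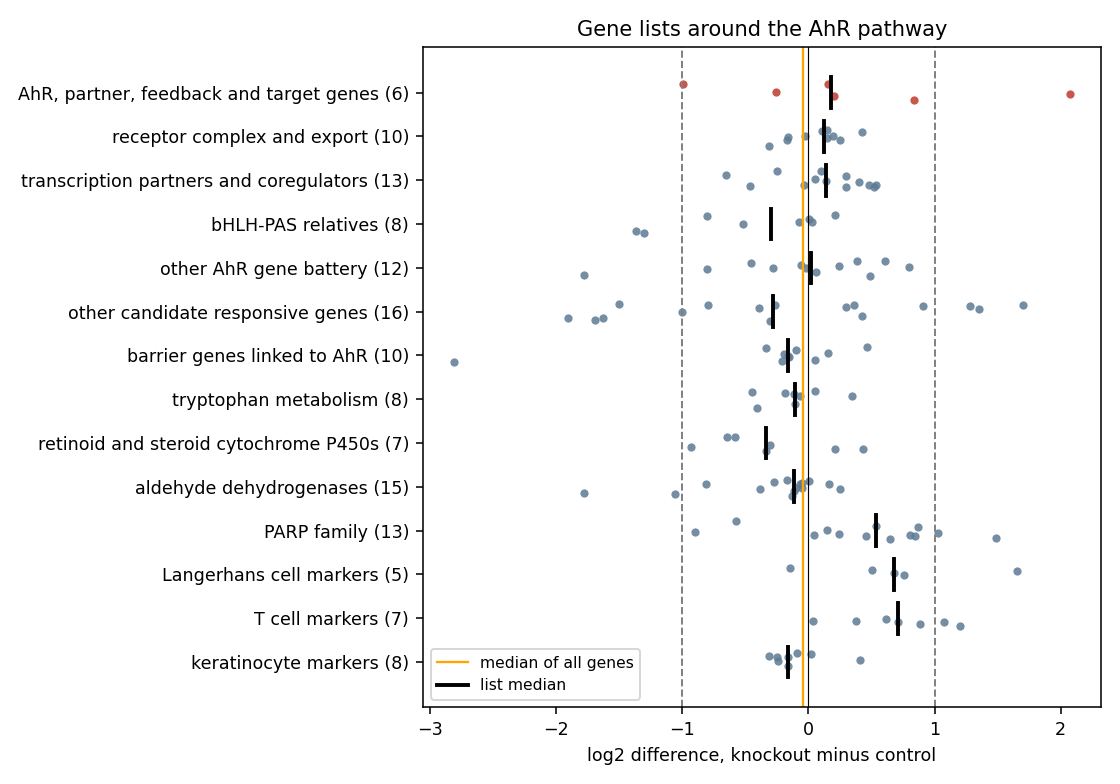
Log2 differences (knockout minus control) of the genes measured on both arrays in each list, 1 point per gene, with the list median as a black bar, the median of all genes in orange and the number of genes in brackets. The members in the top row reach from -0.99 to 2.07, the receptor complex stays within 2-fold, and the PARP, Langerhans cell and T cell lists have medians of 0.54, 0.68 and 0.71.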

How the data were processed

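RNA of peeled epidermis was labelled with Cy3 and hybridised to 1-colour Agilent arrays, 1 per genotype, both on the same slide and scan. Per the file headers, Feature Extraction 10.7.3.1 gave each spot's intensity, with background and spatial trend removed, and its error. The authors' deposited log2 table was centred per probe, with column medians of -0.14 (knockout) and 0.14 (control). Its differences correlated with those of the scanner files (Pearson r 1.0 across 41134 probes, offset -0.01), which settles its scale and direction; levels cannot be had from it.

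Control and outlier-marked spots were removed, log2 signals were averaged over the spots of a probe, and each array's 75th percentile over probes was subtracted. RefSeq accessions (table of GRCm38.p6) named 64.8% of probes, and the brightest probe stood for a gene. Calls were made at 2-fold, with no test. A gene dim on 1 array has a bound against the lowest signal well above background there, and no error is carried into that bound. Local neighbourhoods spanned 3 rows and 3 columns.

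The members and lists were chosen with earlier results of these data known. Named were the members, Nfkbiz, list genes past 2-fold or with the largest differences, bright markers, and the nearest genes to Aldh3a1; Hif3a, Relb, Cyp1a2, Mfge8, the endothelial markers and other list genes were added after their values were seen. Alternatives were other scalings, normexp with an offset of 50 (limma 3.58.1, R 4.3.3), probe means, the authors' table and other filters. The calling code was tested on simulated data. Scripts ran in Python 3.11.15 (pandas 2.3.3, numpy 2.4.6; figures in matplotlib 3.10.9).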

Additional observations from a re-analysis of the deposited data

How the results depend on the processing

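No paired analysis was possible because the knockout and the control have 1 array each, so no sample could be left out either. Subtracting the median of neighbouring spots, keeping marked spots, taking the percentile over spots, each Arnt probe alone, and the counts from the authors' values and without spots near non-uniform ones were chosen after seeing the data. Median scaling shifted all genes by 0.35, which put their median at 0.31. Under it Ahr was at 0.10, Arnt 0.50, Ahrr 1.18, Cyp1b1 -0.65, Tiparp 0.55 and Aldh3a1 2.42. It put 2 members and 10 of 110 listed pathway genes (9.09%) at least 2-fold higher, and 7 of the 110 (6.36%) at least 2-fold lower. Of all genes it put 8.29% higher and 2.27% lower (1028 and 281 genes), where the reported scaling put 377 and 544. Under normexp Ahrr was at 0.33, the Cyp1a1 bound at -0.66, Cyp1b1 at -0.56 and Aldh3a1 at 0.95, so that 0 members were 2-fold higher, beside 1.48% of all genes higher and 1.84% lower (184 and 228 genes). Normexp adds an offset to all signals, and it used median spot signals without non-uniform spots. Arnt was -0.35 as a mean of its probes and -0.85 by the dimmer probe. With neighbouring spots subtracted Ahrr was 1.19 and 2 members were higher; by the authors' values 1 member, Cyp1b1, was lower.

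At 1.5-fold, 2 members were higher and 1 lower. Of the 110 listed pathway genes measured on both arrays, 12 (10.9%) were higher and 18 (16.4%) lower, beside 10.1% and 13.2% of all genes. At 3-fold the pathway counts were 1 (0.909%) and 5 (4.55%), beside 0.863% and 1.52% of all genes. Counting genes measured on 1 array or more put 1 member lower, beside 4.21% and 6.08% of all genes higher and lower (567 and 820 genes). With no filter on background 1 member was lower, beside 3.67% and 7.77% (669 and 1414 genes). The lists were written with earlier results of these data known, so the pathway shares are a description. The 14 listed pathway genes at least 2-fold apart were 12.7% of the 110, beside 7.43% of all genes. Of these 14, 12 stayed so with median scaling, 13 with quantile normalization and with loess, 11 with normexp and 12 with probe means. The causes of these changes were not tested. The number of arrays limits the precision.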
